A study of Mus musculus with 6 samples.

Results

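General hypoxia-induced genes were followed in mouse lung endothelial cells lacking HIF-2α, a set of 32 named genes that many cell types switch on when oxygen is low. For each gene, the probe set with the highest mean over the 6 arrays was taken among those that the platform annotation assigns to that gene alone. Of the 32 genes, 31 had such a probe set and 26 passed the filter on dim probe sets, within 12277 genes fitted in all. Signal, taken here as at least 16 intensity units on some array, was found for 23 of the 26. Car12, Rora and Ak4 were fitted but stayed under 16 on every array. Ppp1r3c, Tmem45a, Ppfia4, Nt5e and Arg1 were below the filter, and Bnip3l had no probe set to itself and is not analysed here. Zfp395 is the member with signal that passed the filter only through the knockout arrays.

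The study compared 3 knockout arrays with 3 control arrays, 1 array per sample. Knockout cells came from lungs of mice carrying VE-Cadherin-Cre and Hif-2a floxed on both copies, so that Cre is driven by a promoter of endothelial cells. Control cells are given in the labels as wild type, as carrying VE-Cadherin-Cre with a floxed and a wild-type copy, and as floxed on both copies, and the labels do not settle which. All cells were held at 0.5% oxygen for 16 h, after repeated selection with endothelial markers and a check by flow cytometry. With no array at normal oxygen, the induction of these genes by low oxygen could not be checked, and the comparison asked how high they stood under low oxygen without HIF-2α. The age of the animals, and whether arrays of a group came from separate animals or cultures, are not given in the sources used here, so the p-values below speak for these 6 arrays and their spread alone, which may be technical.

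Cells sense oxygen through prolyl hydroxylases, which mark the α subunits of hypoxia-inducible factors (HIFs) for destruction while oxygen is present. When oxygen falls, HIF-1α and HIF-2α (encoded by Epas1) build up, pair with ARNT and bind short DNA elements around a core that reads ACGTG or GCGTG. The general targets of this response remove mitochondria, store lipid and glycogen, export acid and slow growth. In many cell types HIF-1α drives most of them, and endothelial cells carry both α subunits.

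The arrays were not evenly spread within the groups, which bears on every test below. The SD of the log2 difference between 2 arrays over all genes was 0.14 between controls 1 and 3, and 0.31 to 0.68 between the other pairs within a group. Epas1 itself read 8920, 9397 and 9859 intensity units on knockouts 1 to 3, against 9611, 9590 and 9444 on controls 1 to 3, so this bright probe set did not separate the groups. A dim Epas1 probe set read 21.7, 18.0 and 11.5 on knockouts, all above the 11.4, 10.3 and 11.4 on controls, near the floor of 16. Whether either probe set lies in the deleted part is not given, so this is no check of the labels. All 10 endothelial markers had signal, among them Pecam1 and Cdh5, and their summed signal was 117291 to 130801 in knockouts and 141753 to 154005 in controls. Bright genes carry this sum. Each of the 10 had a lower mean in knockouts, by unequal amounts, from Tek at 3818 against 8914 in controls to Esam at 17858 against 18076. Vwf was dim, at 40.8 against 49.3. All 8 fibroblast and mural markers and all 8 lung epithelial markers were under 16 on every array. Of 7 leukocyte markers, Ptprc, Itgam, Csf1r, Adgre1 and Lyz2 were under 16, while Cd68 and Cd14 had signal and the list summed to 804 to 1192 in knockouts and 3843 to 4507 in controls. The mean log2 signal of the bioB and bioC spike-in probe sets was 10.69, 10.80 and 10.54 on knockouts 1 to 3 and 10.34, 10.57 and 10.38 on controls 1 to 3. The part of the marker and spike-in differences in the results was not tested, except that the spike-in level was tried as a covariate.

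Most of the hypoxia-induced genes with signal stood lower in knockout than in control cells, by small amounts on the brightest probe set of each gene. In RNA of whole cultures, fewer cells expressing a gene and less RNA per cell cannot be told apart. Differences are given on the log2(intensity + 16) scale, knockout minus control, with limma's standard error. Of the 23 genes, 7 fell and 1 rose at an adjusted p under 0.05, and 15 did not pass. The genes that fell were Ccng2, Vldlr, Hilpda, Fut11, Ndrg1, Bnip3 and Ddit4, and the gene that rose was Zfp395. Since Zfp395 was fitted only through its bright knockout arrays, the count of 1 higher is no independent result. Among all 12277 genes fitted, 5.07% were called lower and 8.63% higher, against 30.4% and 4.35% of the 23. Many of the 12277 are dim, and of the 9248 genes with a mean signal of at least 64 intensity units fitted alone, 6.62% were called lower and 13.6% higher, with 5 of the 23 lower and 1 higher in that fit. The median difference of the 23 genes was -0.31, against 0.0071 over all genes, and 17 of the 23 had a negative difference. On the brightest probe set of each gene, Ccng2 and Zfp395 were the only members of the 23 whose difference reached 1 in size, which 8.45% of all genes did. Dimmer probe sets of Vldlr gave -1.15 to -2.22 and a dim probe set of Fam162a gave -1.37, so the size of a change depended on the probe set.

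**Figure D1:**
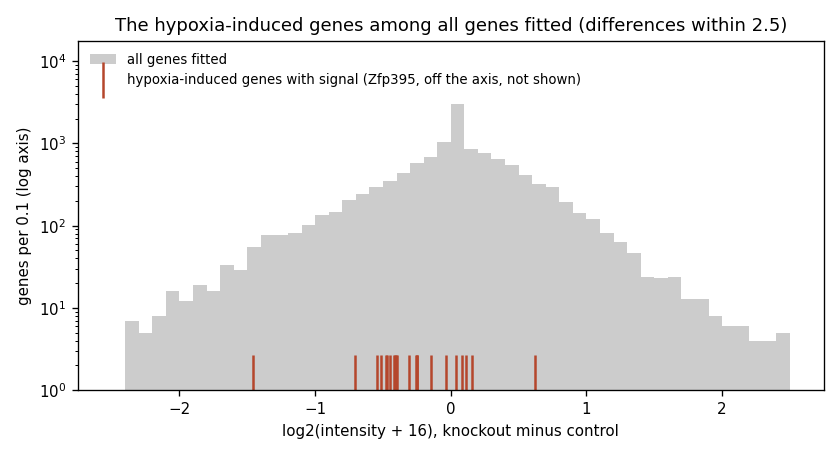
Histogram of the knockout minus control difference of all genes fitted (grey, log axis of genes per 0.1 bin), cut to differences within 2.5, with a red tick for each hypoxia-induced gene with signal. The ticks gather left of 0, with a median of -0.31 against 0.0071 for all genes, and Zfp395 at 4.39 lies off the axis.

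All 3 knockout arrays lay below all 3 control arrays in 13 of the 23 genes (56.5%), and above them in 3 (13.0%). The groups were thus apart in 16 of the 23 genes (69.6%), and in 36.2% of all genes fitted. Zfp395, which had to differ to be fitted, is among the 3 above and so among the 16. Over all genes fitted the shares below and above were 12.8% and 23.4%, and over those with a mean signal of at least 64 they were 15.6% and 27.4%. The median of the 23 genes, taken per array as the log2 distance from the control mean, was -0.26, -0.26 and -0.29 on knockouts 1 to 3 and -0.03, 0.03 and -0.0021 on controls 1 to 3. The shift was therefore of like size on each knockout array, while the same median over all genes stayed between -0.0081 and 0.03 on all 6 arrays.

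Ccng2 and Zfp395 had the largest differences among the genes called. Ccng2, which encodes cyclin G2, an unusual cyclin linked to withdrawal from the cell cycle, read 2050, 2261 and 2669 intensity units on knockouts 1 to 3, against 6264, 6241 and 6669 on controls 1 to 3. The highest knockout array stood at 0.428 of the lowest control array. The log2 difference was -1.46 ± 0.11 (limma adjusted p = 0.00558), which placed Ccng2 among the lowest 1.63% of all genes. A second probe set of Ccng2 read 40.6, 29.8 and 74.6 on knockouts and 267, 327 and 293 on controls, a difference of -2.33 ± 0.28 (limma adjusted p = 0.0195 over probe sets).

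Zfp395, whose human counterpart ZNF395 is a zinc finger protein induced by low oxygen, went the other way. Its probe set read 361, 541 and 342 intensity units on knockouts 1 to 3, whereas controls 1 to 3 gave 3.69, 5.18 and 3.38, all under 16. Zfp395 was at least 25.4-fold higher in knockouts, taking 16 as the level of the controls (fitted log2 difference 4.39 ± 0.19, limma adjusted p = 0.00202). The fitted value depends on the pseudocount, with 5.67 at a pseudocount of 4 and 2.79 at 64, and is not a fold. A gene that is dim in one group passes the filter only if it is bright in the other, so this gene had to differ to be fitted.

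**Figure D2:**
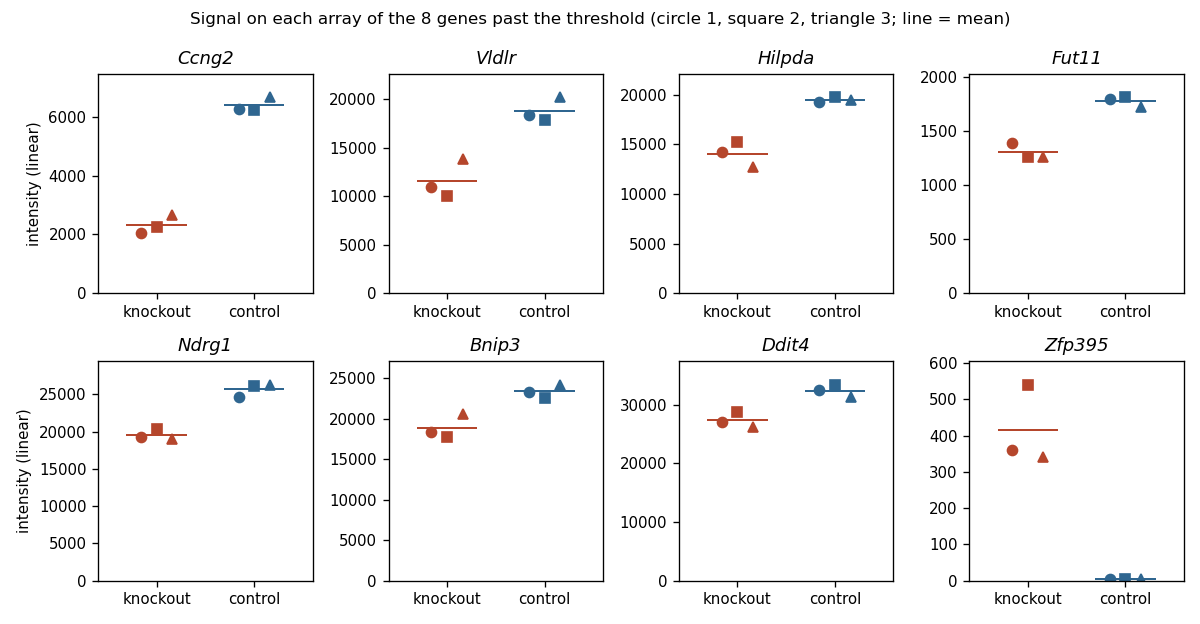
Intensity on each array (linear axis from 0) of the 8 genes past the threshold, knockout arrays in red at left and control arrays in blue at right, with the replicate number as marker shape and the group mean as a line. The groups do not overlap in any of the 8 panels; Ccng2 in knockouts lies between 2050 and 2669, and Zfp395 lies under 16 in controls.

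The promoters of genes that fell, a place where a HIF could bind, are shown for 3 of the 4 with the smallest p. Ndrg1, the other of the 4, had no listed promoter window, and neither had Zfp395. Sequences are from RefSeq (GRCm38.p6), 250 bases before to 50 after the gene's start, 5′ to 3′ along the gene, with each match to ACGTG or GCGTG, on either strand, in capitals.
Ccng2 promoter (chr5:93267323-93267622, + strand): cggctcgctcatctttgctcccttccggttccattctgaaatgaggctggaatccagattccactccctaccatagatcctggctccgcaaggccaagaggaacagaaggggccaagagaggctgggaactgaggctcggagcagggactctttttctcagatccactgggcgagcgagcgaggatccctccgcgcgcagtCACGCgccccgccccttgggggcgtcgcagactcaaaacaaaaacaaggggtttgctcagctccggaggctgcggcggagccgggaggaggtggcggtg
Fut11 promoter (chr14:20694718-20695017, + strand): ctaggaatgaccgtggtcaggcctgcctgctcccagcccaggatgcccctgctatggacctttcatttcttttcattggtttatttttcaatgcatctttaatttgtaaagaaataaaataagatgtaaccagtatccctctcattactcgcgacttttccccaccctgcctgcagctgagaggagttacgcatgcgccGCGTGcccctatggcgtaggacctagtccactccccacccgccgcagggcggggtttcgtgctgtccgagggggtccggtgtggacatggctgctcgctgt
Hilpda promoter (chr6:29272376-29272675, + strand): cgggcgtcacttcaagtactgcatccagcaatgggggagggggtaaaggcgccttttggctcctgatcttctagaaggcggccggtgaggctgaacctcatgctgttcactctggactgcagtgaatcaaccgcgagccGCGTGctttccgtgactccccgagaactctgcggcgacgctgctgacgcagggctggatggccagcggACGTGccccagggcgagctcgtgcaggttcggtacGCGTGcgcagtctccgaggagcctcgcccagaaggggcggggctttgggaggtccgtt
Ccng2 and Fut11 each held 1 match, at -49 and -51 from the start, the first on the opposite strand. The Hilpda window held 3, at -111, -43 and -8. A second listed start of Hilpda, with an overlapping window, held 1.

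The 2 motifs cannot start at the same base of a strand, but a pair of matches on opposite strands can overlap, as in CACGTG, and were then counted as 2. Promoter windows were listed for 27 of the 32 genes, and 24 of these (88.9%) held a match in at least 1 window. The same was true of 66.2% of the 9915 fitted genes with a listed window. Counted by window, matches were present in 43.8% of all 32851 windows of the table, 60.2% of those of fitted genes and 82.4% of the 34 windows of the hypoxia-induced genes. Bnip3 had 5 matches in its window and Ddit4 had 2, whereas both Vldlr windows and the Gbe1 window had none. Genes that did not pass the test also held matches, with 6 in Fam162a, 5 in Rab20 and 3 in Selenbp1. A match describes letters in the window and is not a site.

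Genes of growth and stress control held 3 of the 7 genes that fell, Ccng2 being the first. Ndrg1, a stress-responsive protein that restrains growth and spread of tumour cells, read 19290, 20318 and 19056 intensity units on knockouts 1 to 3, against 24579, 26164 and 26314 on controls 1 to 3. The difference was -0.39 ± 0.04 (limma adjusted p = 0.0122), and the highest knockout stood at 0.827 of the lowest control. Ddit4, or REDD1, which inhibits mTORC1 when oxygen or energy is short, read 27067, 28731 and 26168 on knockouts and 32574, 33464 and 31274 on controls, a difference of -0.25 ± 0.05 (limma adjusted p = 0.0379). Both genes were bright on all 6 arrays, and their groups did not overlap. The fourth of this group, Wsb1, a substrate-binding subunit of a ubiquitin ligase, averaged 13967 ± 2177 in knockouts and 16605 ± 1417 in controls (SD, n = 3 each). Its groups overlapped, with knockout 3 at 16428 and control 2 at 14978, and it did not pass (log2 difference -0.26, 95% interval -0.61 to 0.10, limma adjusted p = 0.269), except without control 2 and knockout 3 together (-0.45, limma adjusted p = 0.0207) and with array weights (-0.47, 0.00487).

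Lipid uptake and storage held 2 genes that fell and 2 that did not pass. Vldlr, the receptor that takes up triglyceride-rich lipoproteins, read 10932, 10058 and 13777 intensity units on knockouts 1 to 3, against 18305, 17881 and 20196 on controls 1 to 3. The difference was -0.71 ± 0.14 (limma adjusted p = 0.0389), the second largest decrease after Ccng2 among the genes called. Hilpda, a small protein of lipid droplets that inhibits the lipase ATGL, read 14230, 15202 and 12682 on knockouts, against 19234, 19773 and 19459 on controls (difference -0.48 ± 0.07, limma adjusted p = 0.0244). The controls of Hilpda lay close together while its knockouts spread more widely, all below them. Plin2, which coats lipid droplets, averaged 10387 ± 935 in knockouts and 11461 ± 500 in controls, with overlap (difference -0.14, 95% interval -0.35 to 0.06, limma adjusted p = 0.279). Angptl4, a secreted inhibitor of lipoprotein lipase, averaged 23827 ± 2166 and 23174 ± 1046 in knockouts and controls (SD, n = 3 each for both genes). Its difference of 0.04 had a 95% interval of -0.17 to 0.25 (limma adjusted p = 0.829), and the values of Vldlr and Hilpda lie outside that interval. The interval covers the spread between arrays of this bright probe set in this fit alone, so it does not exclude such a change of the gene.

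Of the mitochondrial genes, 1 fell and 2 did not pass. Bnip3, an outer membrane receptor that marks mitochondria for removal by autophagy, read 18407, 17725 and 20541 intensity units on knockouts 1 to 3, against 23330, 22585 and 24235 on controls 1 to 3. The difference was -0.31 ± 0.07 (limma adjusted p = 0.0484), the weakest of the 7 calls. Higd1a, a small inner membrane protein that associates with respiratory complexes, was higher on all 3 knockout arrays (26955, 29289 and 27680, against 25235, 24607 and 25271), and its difference of 0.16 ± 0.04 did not pass (limma adjusted p = 0.0577). The other probe sets of Higd1a gave -0.02 and 0.0015, close to 0. Fam162a, a mitochondrial protein linked to hypoxic cell death, averaged 32653 ± 787 in knockouts and 33425 ± 743 in controls (SD, n = 3 each), a difference of -0.03 with a 95% interval of -0.11 to 0.04 (limma adjusted p = 0.48). Ak4, a mitochondrial adenylate kinase, read 5.69 to 6.01 on all arrays, a level at which no difference can be read.

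Among the enzymes, Fut11 fell, and the others did not pass or had no signal. Fut11, a fucosyltransferase, read 1393, 1258 and 1262 intensity units on knockouts 1 to 3, against 1805, 1817 and 1722 on controls 1 to 3. The difference was -0.45 ± 0.05 (limma adjusted p = 0.014), with little spread within either group. The dimmer probe sets of Fut11 gave smaller differences of -0.24 and -0.28, with overlap, and did not pass (limma adjusted p = 0.209 and 0.776 over probe sets). Selenbp1, a selenium-binding protein that oxidises methanethiol, averaged 10706 ± 1132 in knockouts and 14228 ± 1030 in controls (SD, n = 3 each) without overlap, and missed the threshold (difference -0.41, 95% interval -0.67 to -0.15, limma adjusted p = 0.062). It passed with the spike-in level in the model (difference -0.66, limma adjusted p = 0.0179), with a trend in eBayes (0.049) and with array weights (0.0058). Mice carry a close copy, Selenbp2, that its probes could also read, so this value is uncertain. Car9, the carbonic anhydrase at the cell surface that helps export acid, read 159, 375 and 149 on knockouts, against 145, 154 and 97.1 on controls. Knockout 2 alone stood apart, and the difference of 0.62 had a 95% interval of -0.45 to 1.69 (limma adjusted p = 0.365). Car12, a related anhydrase, read 5.27 to 5.44 on all arrays. Nt5e, which makes adenosine outside the cell, and Arg1, which cleaves arginine, were under 16 on all arrays, at most 5.21 and 4.98.

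Glycogen was represented by Gbe1, the branching enzyme, since Ppp1r3c, a glycogen-targeting subunit of protein phosphatase 1, was at most 4.25 on any array. Gbe1 read 4643, 3484 and 5059 on knockouts 1 to 3, against 5900, 6027 and 6736 on controls 1 to 3. All knockouts lay below all controls, but the knockouts were spread, and the difference of -0.51 ± 0.16 did not pass (limma adjusted p = 0.105, 95% interval -0.93 to -0.10).

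Among genes of transcription and chromatin, only Zfp395 passed, and it had to differ to be fitted, so its call is no independent result. Sap30, a subunit of the Sin3 histone deacetylase complex, averaged 3117 ± 586 in knockouts and 4077 ± 263 in controls (SD, n = 3 each). Its groups did not overlap, by a narrow margin of 0.977 between the nearest arrays, and the difference of -0.40 did not pass (limma adjusted p = 0.151). Jmjd6, a JmjC-domain hydroxylase, averaged 7624 ± 764 and 7044 ± 241 in knockouts and controls with overlap (difference 0.11, limma adjusted p = 0.427). Rora, a nuclear receptor of the clock, was under 16 on every array in the probe set chosen.

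Both secreted signals had bright or moderate signal and did not pass. Mif, an inflammatory cytokine with processed pseudogenes that its probes could also read, averaged 37975 ± 436 in knockouts and 35778 ± 590 in controls (SD, n = 3 each). All knockouts lay above all controls, with a difference of 0.09 ± 0.02 (limma adjusted p = 0.0615). Tgfa, a ligand of the EGF receptor, averaged 2016 ± 231 in knockouts and 2394 ± 71.1 in controls without overlap (difference -0.25, 95% interval -0.49 to -0.01, limma adjusted p = 0.141).

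Of the remaining genes, Ankrd37, Narf and Rab20 had lower means in knockouts and none passed. Ankrd37, an ankyrin repeat protein, averaged 9587 ± 1848 in knockouts and 13151 ± 1057 in controls (SD, n = 3 each), with the groups apart (difference -0.47, limma adjusted p = 0.134). Narf, a nuclear protein that binds prenylated lamin A, averaged 499 ± 102 in knockouts and 733 ± 139 in controls, also apart (difference -0.55, limma adjusted p = 0.159). Rab20, a small GTPase of endosomes, averaged 224 ± 80.9 and 296 ± 76.6 in knockouts and controls with overlap, and its 95% interval of -1.35 to 0.52 was wide. Tmem45a and Ppfia4 were at most 4.21 and 4.82 on any array.

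**Figure D3:**
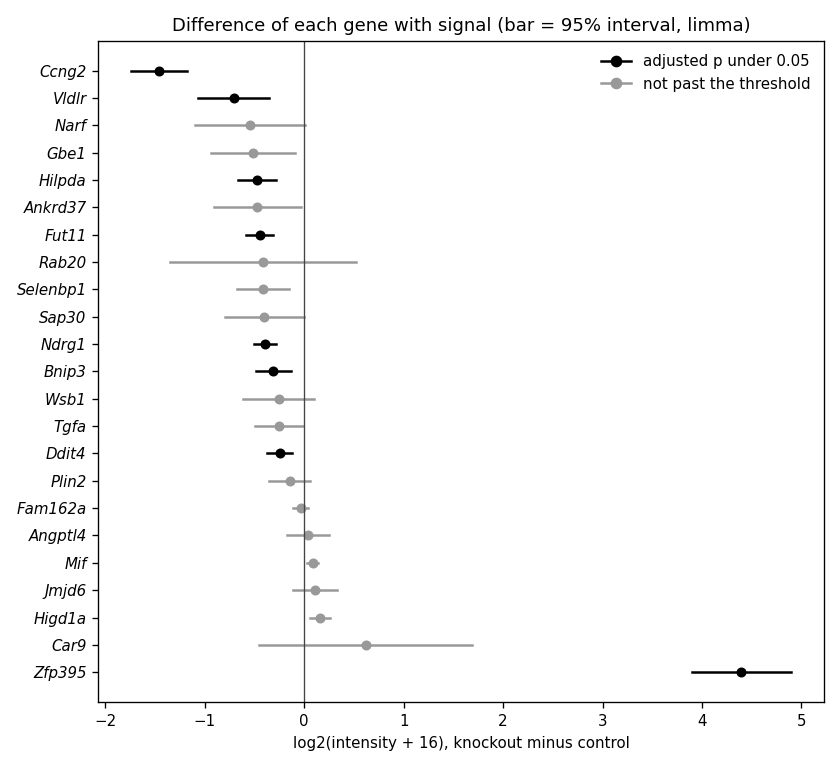
Knockout minus control difference on the log2(intensity + 16) scale of the 23 genes with signal (points) with limma's 95% interval (bars), black where the adjusted p was under 0.05 and grey otherwise. From Ccng2 at -1.46 to Fam162a at -0.03, 17 genes lie left of 0. Among the 6 on the right only Zfp395 at 4.39, which had to differ to be fitted, is past the threshold.

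The knockout arrays did not order these genes in one way. In 14 of the 23 genes, among them Ndrg1, Ddit4 and Hilpda, knockout 3 was the lowest knockout array, as it was for 64.1% of all genes. In 5 genes, Bnip3, Vldlr, Wsb1, Ccng2 and Gbe1, knockout 3 was the highest and so the nearest to the controls, as it was for 25.4% of all genes. Both counts are near the shares of all genes, so this order describes the arrays and is no result about these genes. The 14 also include Zfp395, Car9, Jmjd6 and Angptl4, whose means were higher in knockouts.

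Further probe sets of the same gene mostly pointed the same way. Of the 10 members with more than 1 probe set with signal, 7 were lower in all of them, 2 were higher in all and Higd1a was mixed. All 6 Vldlr probe sets were lower in knockouts, and the dimmer ones showed larger differences. The brightest gave -0.71 and the dimmest -2.22 ± 0.69, with 618, 210 and 1092 intensity units on knockouts 1 to 3 against 3104, 1582 and 3179 on controls 1 to 3. The probe sets that stood for Vldlr and Ndrg1 end in x_at, which marks probes shared with other sequences, and every other probe set of these genes was lower too. Of the 6, 2 passed over probe sets, as did 2 of the 5 Ndrg1 probe sets, whose differences ran from -0.88 to -0.39. Over the 22557 probe sets fitted, 3.83% were called lower and 5.72% higher. Of the 44 member probe sets with signal, 9 were called lower and 1 higher. The 9 include 2 each of Vldlr, Ndrg1 and Ccng2, and the 1 higher is that of Zfp395, which had to differ to be fitted. The 22557 also hold probe sets under 16 on every array, so their shares are not a like background for the 44. A dim probe set of Fam162a read 41.4, 18.5 and 81.6 on knockouts and 109, 136 and 161 on controls, apart from the bright one, and did not pass (difference -1.37 ± 0.42, limma adjusted p = 0.119 over probe sets). Bnip3 did not pass when adjusted over probe sets (0.0583).

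**Figure D4:**
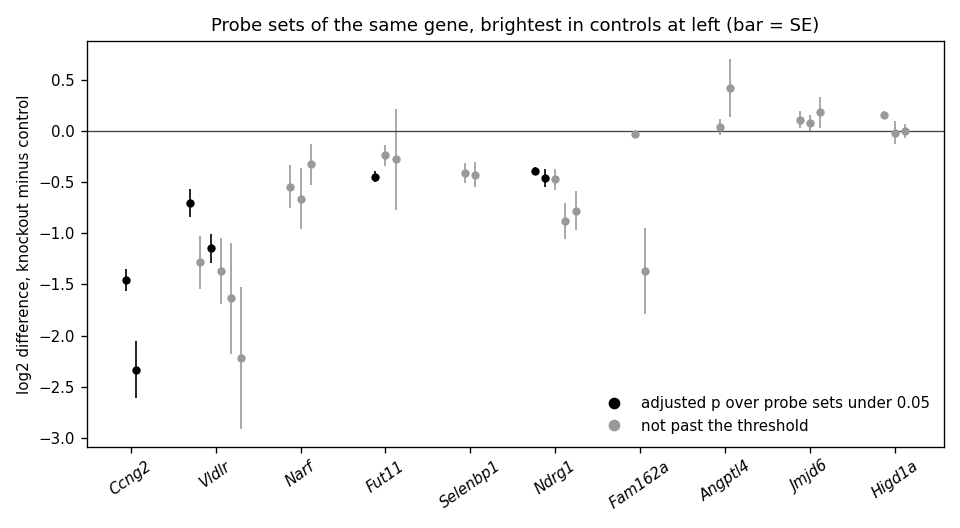
Knockout minus control difference (log2, vertical axis) of each probe set with signal for the 10 members with several, ordered within a gene from the brightest in controls at left, with bars of 1 SE and black points where the adjusted p over probe sets was under 0.05. Vldlr runs from -0.71 in its brightest to -2.22 in its dimmest probe set, and Ccng2 gives -1.46 and -2.33.

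The call of Ccng2 held with each array left out in turn, whereas the other 6 genes that fell each lost theirs without at least 1 array. Ccng2 kept a limma adjusted p under 0.05 in all 20 alternative settings, with a range of 0.000256 to 0.0425. Zfp395 also passed in all 20 (6.68e-05 to 0.0238). In all but the fit with no filter it was fitted only because its knockout arrays were bright, so passing there is no sign of stability. With no filter its limma adjusted p was 0.00485. Ndrg1 kept its call in 17, and lost it without knockout 1 (limma adjusted p = 0.0631), without control 3 (0.0663) and with controls 1 and 3 averaged (0.051). Hilpda kept its call in 15 and lost it without knockout 1 (0.0918) and without control 1, 2 or 3 (0.103, 0.0692 and 0.106). Fut11 also kept 15 and lost its call without control 1 or 3 (0.0776 and 0.0648) and, at 0.345, as the mean of its probe sets. Vldlr kept 11 and lost its call without knockout 1 or 2 (0.137 and 0.0797), and without control 1, 2 or 3 (0.138, 0.0834 and 0.142); as the mean of its probe sets its difference was -1.39 and did not pass (0.067). Ddit4 kept 11 and lost its call without knockout 1 (0.137) and without control 1, 2 or 3 (0.147, 0.0903 and 0.102). Bnip3 kept 7, and without a single array its call held only when knockout 3 was left out (0.0203). In the 6 genes other than Ccng2 that fell, the difference stayed negative in all 20 settings. With the spike-in level added to the model, the differences of Vldlr and Bnip3 were -0.43 and -0.16. Their calls ended (limma adjusted p = 0.148 and 0.177), as did that of Fut11 (0.0534). The differences of Ndrg1, Hilpda and Ddit4 were -0.47, -0.63 and -0.35 and passed. The spike-in level itself ran from 10.54 to 10.80 on knockouts and from 10.34 to 10.57 on controls. It partly follows the groups, so this fit cannot separate it from the knockout.

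**Figure D5:**
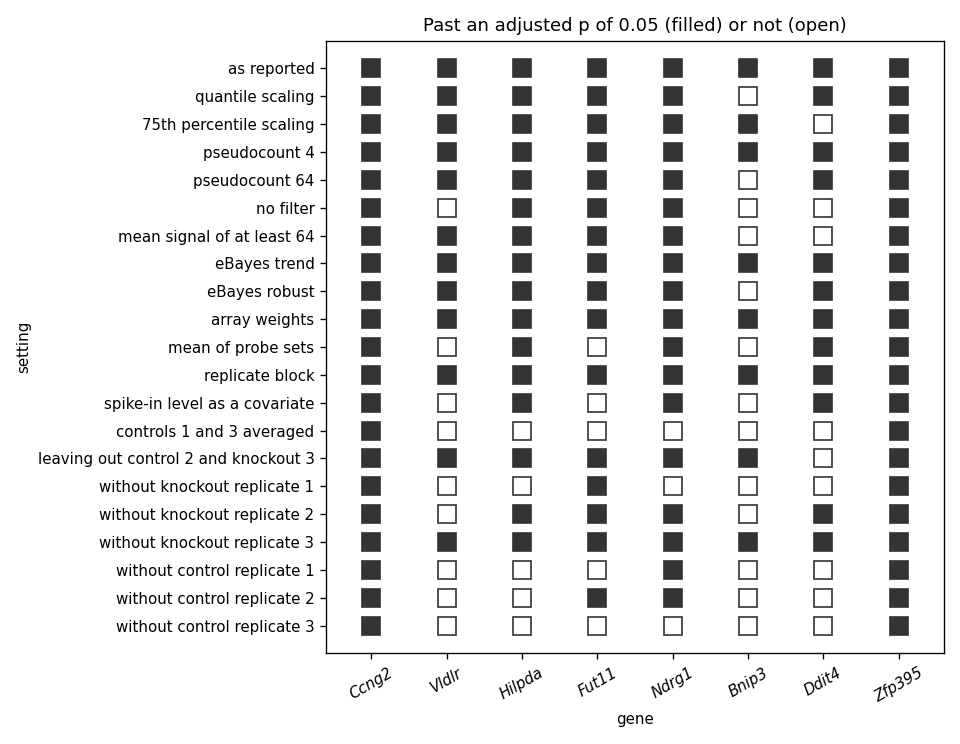
Whether each of the 8 genes (columns) passed an adjusted p of 0.05 (filled) or not (open) as reported and in each of 20 alternative settings (rows). The columns of Ccng2 and Zfp395 are filled throughout, Bnip3 is filled in 7 alternatives, and with controls 1 and 3 averaged Ccng2 and Zfp395 are the ones filled.

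Other genes of the low-oxygen response were looked at beside the 32, from a separate list of 28. Of the 22 that were fitted, 3 fell, 0 rose and 19 did not pass, with 10 negative and 12 positive differences and a median of 0.01. The 22 include Pfkfb4, at most 7.94 on any array, whereas members under 16 on every array were left out of the member counts and median. Among all 12277 genes fitted, 5.07% were called lower and 8.63% higher. At an unadjusted p under 0.05 limma gave 4 higher and 6 lower of the 22. The share of all genes at that level was not counted, so these 2 counts are no result about this list. At an adjusted p under 0.05 limma already called 13.7% of all genes fitted in either direction. The 3 that fell were Vegfa, the main endothelial growth factor (-0.80 ± 0.05, limma adjusted p = 0.00413), Mxi1, a MYC antagonist (-0.87 ± 0.07, limma adjusted p = 0.00762), and Bhlhe40, a transcriptional repressor (-0.56 ± 0.07, limma adjusted p = 0.0165). Whether the 2 lists differ was not tested.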

How the data were processed

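RNA was amplified and biotin-labelled for Affymetrix arrays, per the labels' protocols. The authors deposited linear intensity values, 1 for each probe set on each array; MAS5 and GCRMA are named in the submitters' processing notes, with no version or role. Array quantiles were nearly equal, so no scaling was added. Background correction of this kind leaves dim probe sets near a floor, and values under 16 were read as no signal.

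Of 45101 probe sets, 64 were controls, 34958 were annotated to 1 gene, 932 to several and 9211 were not listed. Values were taken as log2(intensity + 16), which understates changes of dim genes. Probe sets among the dimmest 40% by their 6-array mean were dropped, and each gene was represented by its brightest remaining probe set. Groups, taken from the sample titles, were compared with limma 3.58.1 under R 4.3.3 (moderated test, two-sided; Benjamini-Hochberg over all 12277 genes, threshold 0.05). The fit was also run on simulated data. Their noise was independent between genes and lacked the uneven spread between arrays seen here, so they do not measure error rates in these data. The 20 alternatives changed scaling, pseudocount, filter, eBayes settings, weights, probe sets, block, covariate and arrays; a fit per probe set was added after the data were seen. Every member was named. The members, lists and alternatives were chosen with earlier results of these data known. Figures were drawn with matplotlib 3.10.9. The number of arrays limits the precision.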

Additional observations from a re-analysis of the deposited data

How the results depend on the processing

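Of the 20 alternatives, those not named here left each count within 1.5 times its value and the median within the spread between arrays. As reported, 623 genes were called lower and 1060 higher, 7 and 1 of the members, and 3 and 0 of the other hypoxia genes. With 1 array left out the counts ran from 101 to 1019 lower and 94 to 1989 higher over all genes, from 1 to 7 lower among the members with 1 higher each time, and from 1 to 4 lower and 0 to 2 higher among the other hypoxia genes. The members' median (-0.31) ran from -0.33 to -0.28 in the same fits. With no filter, 370 genes were lower and 513 higher, with 4 members lower. As means of probe sets, 4 members were lower. With a pseudocount of 64, 2 members were higher, Mif being added. Array weights gave 2981 lower and 4353 higher genes, 12 and 4 members, 7 and 6 other hypoxia genes, and a median of -0.24; the cause was not tested. The spike-in covariate left 535 genes higher and 1 other hypoxia gene higher. With controls 1 and 3 averaged, 101 genes were lower and 96 higher, with 1 member and 1 other hypoxia gene lower. Leaving out control 2 and knockout 3 gave 1699 lower and 2945 higher genes, 2 other hypoxia genes higher and a median of -0.23.

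Signs turned only in genes that had not passed: Fam162a with array weights (0.024), Car9 (-0.12), Jmjd6 (-0.083), Angptl4 (-0.16) and Wsb1 (0.038) with the spike-in covariate, Rab20 (0.073) without control 2 and knockout 3 together, and Angptl4 without knockout 2 (-0.027, in a range up to 0.10 with 1 array left out). Same-numbered arrays deviated together in numbers 2 and 3 (correlations 0.84 and 0.80) but not in number 1 (-0.47). Differently numbered arrays could deviate together too, with 0.76 between knockout 3 and control 1 and 0.50 between knockout 1 and control 2. Deviations from a mean of 3 arrays are bound to each other, so these values cannot tell whether the numbers pair the samples. With the replicate block 2076 genes and 2 other hypoxia genes were called higher, and the same 7 and 1 members were called.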
